A study of Mus musculus with 9 samples.

Results

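Interstitial macrophages of the mouse joint were compared with macrophages grown from bone marrow, as 3 libraries against 3 of the 9 in the series, across all genes. The interstitial libraries (D, E and F) came from hind paw synovium of healthy Cx3cr1-GFP mice, in which green fluorescent protein (GFP) reports activity of the fractalkine receptor gene, and held cells sorted as CD45+CD11b+F4/80+ without GFP. The bone marrow-derived macrophages (BMDM, libraries G, H and I) were marrow precursors of C57BL/6 mice kept for 5 days in culture medium that held macrophage colony-stimulating factor (MCSF). The remaining 3 libraries, of GFP-positive lining macrophages, were not compared. They entered the filter on counts, the scaling and the estimate of the spread between libraries. The labels give neither age nor sex, neither the dose of the Cx3cr1 reporter allele nor whether the libraries of a group are separate animals or pools, so p-values measure the spread between these libraries alone. Tissue, mouse line, tissue handling and sorting, and culture changed together between the groups, so their contributions cannot be told apart.

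The synovium is the membrane around the joint cavity, and its interstitial macrophages lie in the connective tissue below the lining layer. Tissue-resident macrophages take up dying cells, haemoglobin and debris, present antigen and keep to gene programmes set by the organ. BMDM are a standard culture model: MCSF, the ligand of the receptor encoded by Csf1r, drives marrow progenitors to divide and to mature into macrophages on plastic.

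Total counts were 2238261, 10807462 and 4693755 in interstitial D, E and F and 22499823, 19427273 and 20975304 in BMDM G, H and I. At 3 counts, the floor used here, this is 1.34, 0.278 and 0.639 CPM (reads of a gene relative to the size of its library) in the interstitial libraries and from 0.133 to 0.154 CPM in BMDM. Intervals and floors cover counting error only. Spread was larger in the sorted group, with a median ratio of SD to mean over genes of 0.281 against 0.0565 in BMDM. The main test used an estimate of spread per gene shared by all groups, so its p-values do not allow for this difference. Of the alternatives, limma-voom weighted the groups separately. Interstitial D and F stood apart from the other interstitial libraries in several gene groups, and many results that rest on them are also given without them. Interstitial E and F held both the female transcript Xist and transcripts of the Y chromosome, while interstitial D and the BMDM libraries had few or no Xist counts, and the part of this in other results was not tested.

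The comparison measured how the joint tissue macrophages differ from a cultured stand-in. Of 12610 genes tested, 2955 (23.4%) were higher and 2688 (21.3%) lower in interstitial macrophages at an edgeR adjusted p under 0.05, which is what "higher", "lower", "rose" and "fell" mean throughout, always for interstitial relative to BMDM. The genes that were higher moved further, with a median log2 fold change of 1.84, than those that were lower, with -1.20, and the median over all genes tested was -0.01. A difference past 2-fold, tested as such, was found for 1454 genes higher (11.5%) and 881 lower (6.99%). The CPM ranges of the 3 libraries did not overlap between groups for 7838 genes (62.2%), of which 5378 were called. The call stood in each of the 9 fits that left out 1 library for 3925 of the 5643 called genes. The shares of 23.4% higher and 21.3% lower are the background for the counts of every list below.

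**Figure D1:**
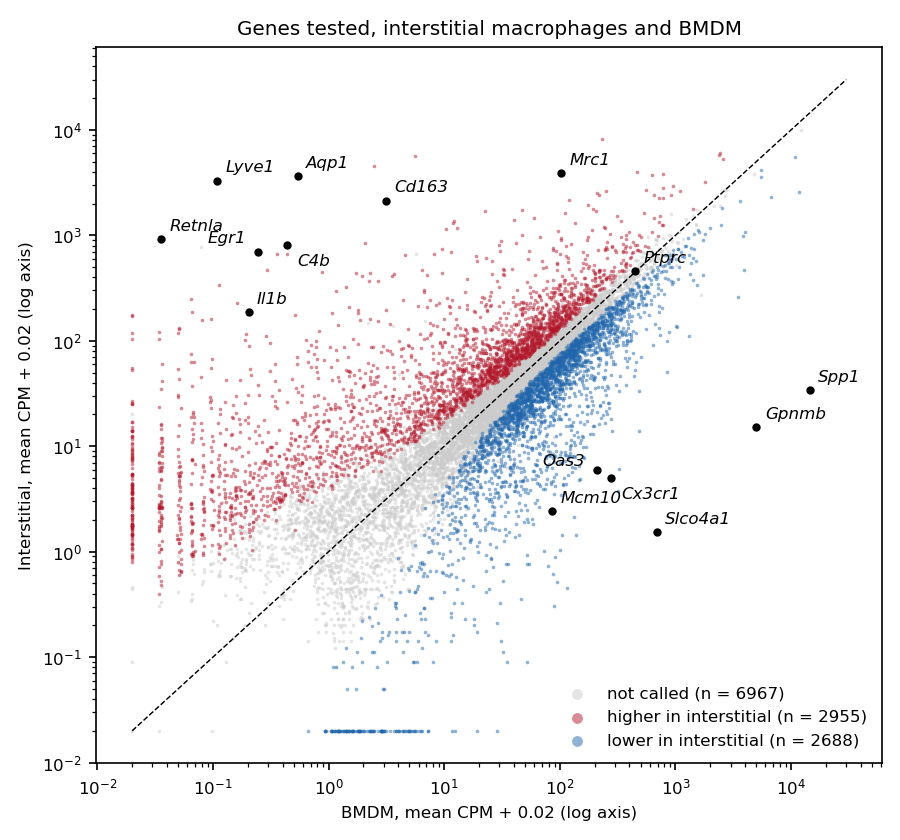
Mean CPM of the 12610 genes tested in interstitial macrophages (vertical) and BMDM (horizontal), both on log axes after adding 0.02, coloured by call, with the line of equal values dashed and examples named. Lyve1 and Aqp1 lie at the upper left, at means of 3308 and 3642 CPM in interstitial libraries and under 1 CPM in BMDM, and Spp1 and Gpnmb lie far to the right.

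The labelled cell types were checked against their markers first. Ptprc, which encodes CD45, was measured at 375, 537 and 468 CPM in interstitial D, E and F and at 459, 432 and 455 CPM in BMDM G, H and I (log2 fold change 0.04 ± 0.16 SE, adjusted p = 0.871). Adgre1, which encodes F4/80, differed by 0.29 ± 0.15 (adjusted p = 0.138), and Itgam, the CD11b chain, was higher by 0.78 ± 0.13 (adjusted p = 0.000562). Transcripts of all 3 proteins that the sort required were thus present in both groups. Cx3cr1, whose reporter was absent from the sorted cells by design, stood at 2.66, 4.28 and 7.86 CPM against 311, 236 and 287 CPM, a difference of -5.76 ± 0.28 that the gate could set. The MCSF receptor gene Csf1r was present in both groups and higher by 1.06 ± 0.18 in interstitial cells. Of 12 sort and identity genes, 4 were higher and 4 lower. Lyz2, lysozyme, and Cd68 were not called (-0.29 ± 0.23 and -0.27 ± 0.15; called without interstitial D, at -0.60 and -0.40), and the small differences of Fcgr1, Tyrobp and Cd14 (-0.68 ± 0.24, -0.48 ± 0.17 and -0.43 ± 0.16) lost their calls without any of BMDM G, H or I, which left 1 of the 12 lower. Fcgr1 also lost it without lining B, Tyrobp without interstitial E or F, and Cd14 without interstitial D or E, with a highest adjusted p of 0.161, and 2 of the 12 were lower without interstitial E.

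Markers of resident connective tissue macrophages set the groups far apart. Lyve1, the hyaluronan receptor (ENSMUSG00000030787, chromosome 7, 110850607 to 110863239, minus strand), was measured at 3878, 3363 and 2684 CPM in interstitial D, E and F and 0.216, 0.0497 and 0 CPM in BMDM G, H and I, a log2 fold change of 14.96 ± 0.45 (adjusted p = 8.51e-10, 16.42 without BMDM G). Aqp1, the water channel aquaporin 1 (ENSMUSG00000004655, chromosome 6, 55336432 to 55348555, plus strand), had 3242, 3905 and 3779 against 0.519, 0.397 and 0.646 CPM (12.74 ± 0.32, adjusted p = 3.05e-10). Both genes were near the floor in every cultured library and among the abundant transcripts of every sorted one. Cd163, the scavenger receptor for haptoglobin-bound haemoglobin (ENSMUSG00000008845, chromosome 6, 124304656 to 124330527, plus strand), stood at 2641, 2127 and 1636 against 3.29, 2.93 and 3.04 CPM (9.43 ± 0.33). Mrc1, the mannose receptor (ENSMUSG00000026712, chromosome 2, 14229392 to 14332057, plus strand), was expressed in BMDM as well, at 88.6, 140 and 81.6 CPM, and reached 5146, 3578 and 2859 CPM in interstitial cells (5.22 ± 0.29). Interstitial D had the highest value of Lyve1, Cd163 and Mrc1, and for these 4 genes no interstitial library overlapped a BMDM library. In bulk RNA, more cells that express a gene and more RNA per cell cannot be told apart.

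Spp1, osteopontin, a secreted phosphoprotein made by macrophages and osteoclasts (ENSMUSG00000029304, chromosome 5, 104435118 to 104441050, plus strand), ran the other way. It was measured at 16.4, 20.1 and 66.1 CPM in interstitial D, E and F and at 13680, 10806 and 18959 CPM in BMDM G, H and I, a log2 fold change of -8.71 ± 0.64 (adjusted p = 7.65e-06, -9.62 without interstitial F). Gpnmb, a transmembrane glycoprotein linked to lysosomes and lipid loading (ENSMUSG00000029816, chromosome 6, 49036546 to 49070929, plus strand), had 2.22, 24.3 and 19.1 against 4973, 5536 and 4526 CPM (-8.24 ± 0.68). The groups did not overlap for either gene, and the highest interstitial library stayed far below the lowest BMDM library.

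The 10 genes with the largest rise, after removing weak and unstable ones by the rule given with the methods, were Lyve1, Cd209f, Chp2, Aqp1, Cd209g, Tcim, Timd4, Ccl24, C1qtnf1 and Prg4. Cd209f, a C-type lectin gene, had 352, 91.7 and 77.5 CPM in interstitial D, E and F and no count in BMDM, so it was at least 2563-fold higher, 3 counts over the BMDM group being the floor. Its relative Cd209g had 121, 25.3 and 18.5 CPM and was at least 753-fold higher. Interstitial D carried the most of both lectins, and without it their fitted log2 fold changes went from 13.87 to 12.97 and from 12.19 to 11.02; reads shared by Cd209 family members may have been lost or split in counting. Chp2, a calcineurin-like calcium-binding protein gene, was at least 3243-fold higher and Tcim at least 1291-fold. Timd4, the phosphatidylserine receptor TIM-4, had 192, 102 and 66.5 CPM against 1 BMDM count, a ratio of 6613-fold (95% counting interval 1185 to 261342). Ccl24, eotaxin 2, had 360, 199 and 184 CPM against 3 counts, 4573-fold (95% counting interval 1564 to 22185). C1qtnf1, a C1q-related secreted protein gene, had 192, 53.4 and 63.5 CPM against 1 count, 4673-fold (95% counting interval 837 to 184731), and its fitted log2 fold change of 11.88 became 11.11 without interstitial D and 12.88 without BMDM G. Without BMDM G the value of Timd4 went from 12.11 to 13.11, and without BMDM I that of Ccl24 from 12.06 to 12.72. Prg4, lubricin, which synovial fibroblasts also make, had 19.9, 408 and 138 CPM, varied widely between the sorted libraries, and its fitted value went from 11.70 to 10.43 without interstitial E.

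The 10 genes with the largest fall by the same rule were Tmem171, Arfgef3, Slco4a1, Mcoln3, Spp1, Hmga2, Npy, Gpnmb, Tmem273 and Tox2. Slco4a1, an organic anion transporter gene, had 1.33, 0.819 and 2.34 CPM in interstitial D, E and F and 683, 586 and 795 CPM in BMDM G, H and I (-8.99 ± 0.46). Hmga2, a chromatin protein gene of growing cells, had 0.443, 0 and 0.85 against 127, 123 and 95.9 CPM (-8.56 ± 0.53, -7.33 without interstitial E and -10.38 without F). Both were thus close to the interstitial floor and well expressed in culture. Tmem171 had no interstitial count and 25.8, 30.9 and 29.6 CPM in BMDM, at least 175-fold lower. Of the genes with 1 interstitial count, Arfgef3 was lower by 961-fold (95% counting interval 172 to 37951) and Mcoln3, a lysosomal cation channel gene, by 635-fold (95% counting interval 114 to 25107). Tox2, with 3 interstitial counts, all in E, was lower by 197-fold (95% counting interval 67.3 to 956). Leaving out the library that held the counts moved the fitted value of Arfgef3 from -9.59 to -12.27 and that of Mcoln3 from -8.98 to -11.68 (both without F), and that of Tox2 from -7.57 to -11.47 (without E). Without E, Arfgef3 was -8.42 and Mcoln3 -7.83. Npy, neuropeptide Y, and Tmem273 had counts only in interstitial F (0, 0 and 0.85 and 0, 0 and 1.49 CPM), with fitted values of -8.50 and -7.78 (-13.03 and -13.12 without F, -7.28 and -6.60 without E).

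**Figure D2:**
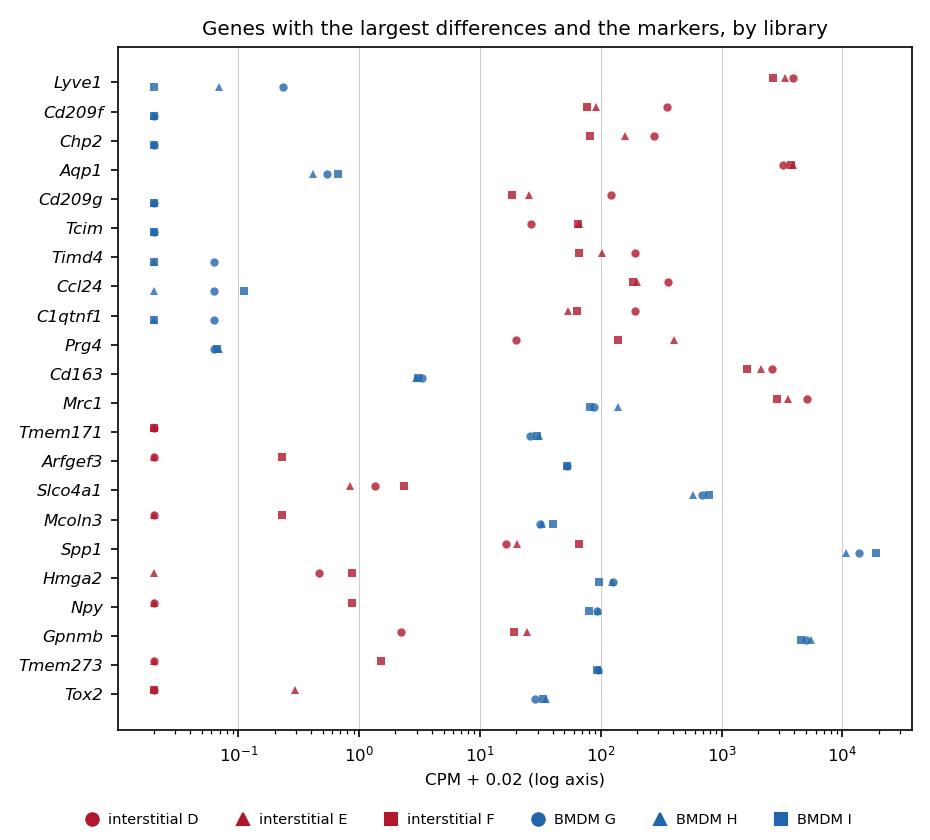
CPM (log axis, 0.02 added so that 0 can be drawn) of the genes with the largest differences and of the markers Cd163 and Mrc1 in each interstitial library (red) and each BMDM library (blue), with 1 point per library. The red and blue points do not overlap for any of these genes, and points at the left edge are libraries with no count.

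Most genes known from resident macrophages of connective tissue rose together, in a list that includes Lyve1, Aqp1 and Cd209f, given above. Of 26 listed genes 25 were tested, 24 were higher and Igf1 was not called (0.31 ± 0.15; called without interstitial F, at 0.41), with a median log2 fold change of 5.22 (-0.01 over all genes, of which 23.4% were higher). F13a1, the coagulation factor XIII A chain, had 9071, 4946 and 3044 CPM in interstitial D, E and F and 6.83, 4.82 and 5.16 CPM in BMDM (9.98 ± 0.48). Ednrb, the endothelin B receptor, had 621, 482 and 222 against 2.29, 1.44 and 1.43 CPM (7.98 ± 0.54). In both genes interstitial D was highest and F lowest, and no library of 1 group reached the other. Retnla, a secreted resistin-like protein of alternatively activated macrophages, had 506, 226 and 2031 CPM against 1 BMDM count, 46770-fold (95% counting interval 8393 to 1847471), with F far above the others; its fitted value of 15.07 ± 3.15 became 13.75 without interstitial F and lost its call without BMDM I (adjusted p = 0.0768).

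Scavenger receptors, which bind modified lipoproteins, glycoproteins and debris, were split, with 12 of 18 higher and 4 lower (median 2.83, 2.20 over the 15 tested with the 6 libraries alone, 3.50 with BMDM counts thinned). Lyve1 and Cd163, given above, were among the higher ones. Clec10a, a galactose-binding lectin gene, rose by 6.84 ± 0.55 (428 ± 279 against 3.69 ± 0.698 CPM, mean ± SD, n = 3 per group, 6.14 without interstitial D). Scarb1, the receptor for high-density lipoprotein, fell by 2.18 on the log2 scale, from 198, 198 and 200 CPM in BMDM to 47, 41.9 and 43.3 CPM. Lrp1, a large endocytic receptor, was lower by a smaller amount (-0.76 ± 0.20), and the fall of Msr1 (-0.43 ± 0.16) lost its call without any of interstitial E or F or BMDM G or H (highest adjusted p = 0.146). Olr1, the oxidised lipoprotein receptor, had 0, 19.1 and 61 CPM and no BMDM count, at least 587-fold higher over the group (fitted value 11.24, 11.85 without D and 10.11 without F), yet interstitial D had none either, so the libraries overlap.

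Genes for uptake of apoptotic cells were 9 higher and 4 lower among the 19 tested of 24 (median 0.36), against 23.4% and 21.3% of all genes. Timd4, given above, was among the higher ones. Pros1, protein S, which bridges phosphatidylserine to its receptors, had 505, 438 and 339 against 25.2, 25.2 and 27.5 CPM (4.04 ± 0.17), and its receptor kinase Mertk had 117, 155 and 119 against 15.3, 20.1 and 18.2 CPM (2.87 ± 0.17). Itgav and Itgb5, the chains of integrin alpha V beta 5, were lower (-1.46 ± 0.19 and -1.99 ± 0.17). The sister kinase gene Axl was lower (-1.47 ± 0.46), a call lost without any of BMDM G, H or I or interstitial E (adjusted p up to 0.0932) and a value of -2.08 without interstitial F. The engulfment genes Rac1 and Elmo1 were not called (0.08 ± 0.12 and -0.35 ± 0.17; Elmo1 was called without interstitial D, at -0.49).

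Complement genes rose in 12 of the 19 tested of 23, and Cd59a fell (-2.90 ± 0.54), with a median of 2.29 (2.95 over the 18 past a filter on mean CPM) and 2 genes lower without interstitial D. C4b, the complement C4 chain of the classical pathway (ENSMUSG00000073418, chromosome 17, 34728380 to 34743882, minus strand), stood at 1455, 528 and 438 CPM in interstitial D, E and F and 0.389, 0.348 and 0.507 CPM in BMDM (10.88 ± 0.63, 10.11 without interstitial D). Vsig4, the receptor for C3 fragments, had 270, 175 and 100 against 1.08, 1.24 and 0.784 CPM (7.43 ± 0.42). Both genes were barely expressed in culture, and in each interstitial D was highest and F lowest. C1qa, a chain of the recognition molecule C1q, rose by 3.60 ± 0.29 from a clear level in BMDM (2521 ± 974 against 208 ± 6.92 CPM). The anaphylatoxin receptor genes C3ar1 and C5ar1 were not called (0.29 ± 0.14 and -0.43 ± 0.20; C5ar1 was called without interstitial D, at -0.63).

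Genes of class II antigen presentation were mostly higher, and those of class I were mixed. Of 17 class II genes tested of 18, 13 were higher (median 2.55). H2-Ab1, the class II beta chain, had 346, 724 and 1333 CPM in interstitial D, E and F and 30.1, 32.7 and 26.6 CPM in BMDM (4.75 ± 0.67, 4.15 without interstitial F), and H2-Aa, the alpha chain, 377, 785 and 1365 against 42.2, 42.2 and 40.3 CPM (4.34 ± 0.68). Both chains were lowest in D and highest in F, and every interstitial library lay above all BMDM libraries. Cd86, a costimulatory ligand, had 263, 245 and 142 against 7.7, 8.15 and 9.54 CPM (4.67 ± 0.25), with F lowest. Ctss, the protease that trims the invariant chain, was not called (-0.19 ± 0.13). Dendritic cells also express class II genes, and their markers rose in 8 of the 11 tested of 13. These markers summed to 305, 218 and 595 CPM in D, E and F against 19.4 to 23 in BMDM, with Clec9a at 0 in all interstitial libraries. Most of the sum in F was 1 gene, Itgax, at 11.1, 42.4 and 411 CPM in D, E and F. The part of dendritic cells in the class II values was not tested. Of 19 class I genes 3 were higher and 7 lower (median -0.31). H2-D1 and H2-K1, heavy chains, were not called (0.19 ± 0.16 and -0.12 ± 0.16; H2-K1 was called without interstitial F, at -0.34), Tap2, a peptide transporter chain, was higher (0.63 ± 0.16), and Nlrc5, the class I transactivator, and Erap1, a peptide-trimming protease, were lower (-1.49 ± 0.24 and -1.20 ± 0.13). Without interstitial F these class I counts were 1 and 11, and without BMDM H 1 was higher.

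Type I interferon response genes were lower. Of 28 listed 27 were tested, 17 fell and Ifi204 rose (1.10 ± 0.20), with a median of -1.77 (21.3% of all genes were lower). Oas3, an oligoadenylate synthetase that senses double-stranded RNA (ENSMUSG00000032661, chromosome 5, 120753098 to 120777661, minus strand), had 3.99, 5.73 and 8.07 CPM in interstitial D, E and F and 220, 208 and 198 CPM in BMDM G, H and I (-5.09 ± 0.32, adjusted p = 1.74e-07). Isg15, a ubiquitin-like modifier (ENSMUSG00000035692, chromosome 4, 156199424 to 156200818, minus strand), had 0, 4.28 and 4.04 against 53.5, 48.4 and 46.6 CPM (-3.93 ± 0.77). Irf7, the factor that amplifies interferon transcription, had 9.75, 25.7 and 19.3 against 127, 121 and 116 CPM (-2.67 ± 0.30). In these 3 genes every interstitial library lay below every BMDM library. Ifitm3, a restriction factor at endosomal membranes, was 7.38-fold lower (138 ± 44 against 1013 ± 59.9 CPM). Rsad2, viperin, and Oas2 were at lower values that did not pass (-1.25 ± 0.69 and -0.86 ± 0.45), though leaving out lining C, and lining A or B, gave a call to the first and the second. The interferon element is known as the binding site of interferon-induced factors, and the promoters of 2 genes with large falls are shown because they carry it.
Promoter windows of 250 bases before the start site, GRCm38.p6 from RefSeq, 5′ to 3′ on the gene's own strand, with matches to TTCNNTTTC on either strand in capitals, overlapping matches running together. Oas3 is chr5:120777660-120777909 and Isg15 is chr4:156200819-156201068, both on the minus strand.
Oas3: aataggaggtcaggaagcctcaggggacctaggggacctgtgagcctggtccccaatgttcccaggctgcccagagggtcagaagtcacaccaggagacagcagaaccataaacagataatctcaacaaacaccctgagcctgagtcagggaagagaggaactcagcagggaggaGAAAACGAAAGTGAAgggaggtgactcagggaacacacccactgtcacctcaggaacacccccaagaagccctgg
Isg15: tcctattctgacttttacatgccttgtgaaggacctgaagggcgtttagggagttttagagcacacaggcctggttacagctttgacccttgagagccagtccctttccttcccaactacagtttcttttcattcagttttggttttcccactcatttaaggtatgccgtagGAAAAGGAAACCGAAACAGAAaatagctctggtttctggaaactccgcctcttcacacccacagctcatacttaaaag
Oas3 held 2 overlapping matches and Isg15 held 3, the nearest to the start site 69 and 66 bases before it. The motif was in 10 of 22 windows (45.5%) of the 19 list genes matched by symbol, and in 7.1% of all 32851 windows. A match describes letters and is not evidence of binding.

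Chemokine ligand genes rose in 13 of the 22 tested of 25, and 2 fell, with a median of 3.37. Leaving out BMDM G, H or I in turn left 10, 9 and 10 higher and 1 lower. The median was 4.86 without interstitial E, where 21 were tested, and 2.01 over the 20 tested when the 6 libraries were fitted alone. Ccl8, a monocyte attractant, had 171, 27.2 and 28.9 CPM in interstitial D, E and F against 3 BMDM counts, 970-fold (95% counting interval 331 to 4715), and Cxcl1, a neutrophil attractant, 28.8, 55.3 and 76.5 CPM against 2 counts, 1831-fold (95% counting interval 506 to 15143). Ccl8 was highest in D, and its fitted value went from 10.33 to 8.93 without D and 10.95 without BMDM G. Ccl17 had 4.43, 18.2 and 334 CPM and no count in BMDM, at least 2106-fold higher, but F held nearly all of it and the call was lost without BMDM G, H or I or lining A (highest adjusted p = 0.11; fitted value 13.35, 10.09 without F and 14.00 without D). Ccl4 was lower (-1.25 ± 0.20), and Ccl2 and Ccl3 were not called (0.62 ± 0.34 and -0.30 ± 0.27; Ccl3 was called without interstitial E, at -0.82). Of the 11 chemokine receptor genes tested of 14, 7 were higher and Cx3cr1, the sort gene, lower. Cmklr1, the chemerin receptor, had 449, 292 and 231 against 1.25, 1.19 and 1.75 CPM (7.84 ± 0.32) and Ccr1 182, 302 and 238 against 8, 8.15 and 6.46 CPM (5.00 ± 0.22), with no overlap. Ccr2, the receptor that draws monocytes into tissue, was higher by a smaller amount (1.47 ± 0.49) and, like Ccrl2 (2.71 ± 0.84) and Ccr3 (3.88 ± 1.14), lost its call without any of BMDM G, H or I or interstitial E (adjusted p up to 0.139, 0.136 and 0.0829), so that 4 receptors were higher in those fits. Ccr3 had 0, 6.55 and 5.52 CPM in D, E and F, and D overlapped BMDM. Cxcr4 was not called (0.70 ± 0.38; called without interstitial D, at 1.01).

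Cytokine genes and the inhibitors that restrain them rose side by side, 15 of the 20 tested of 24 being higher (median 3.32). Leaving out any of BMDM G, H or I left 11 higher. Il1b, interleukin 1 beta (ENSMUSG00000027398, chromosome 2, 129364570 to 129371139, minus strand), had 15.5, 159 and 386 CPM in interstitial D, E and F and 0.216, 0.149 and 0.184 CPM in BMDM G, H and I (9.91 ± 1.61, 8.86 without interstitial F). Every sorted library was above every cultured one, with D lowest. Il1a had 0, 17.7 and 74.1 against 0.216, 0.0994 and 0.231 CPM (7.32 ± 1.64); interstitial D had no count and overlapped BMDM, and the call was lost without BMDM G, H or I (highest adjusted p = 0.0548; 5.66 without interstitial F). Socs3, which damps signalling of the interleukin 6 receptor family, had 346, 411 and 462 against 1.86, 2.09 and 1.8 CPM (7.72 ± 0.22), and Dusp1, a phosphatase that switches off stress kinases, 971, 1349 and 1178 against 14.6, 12.2 and 11.8 CPM (6.50 ± 0.21). Both inhibitors were even across the interstitial libraries. Nlrp3, the inflammasome sensor, was not called (-0.74 ± 0.85), with 9.75, 86.7 and 116 CPM in D, E and F, and neither was Tgfb1 (0.20 ± 0.16).

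Receptors for cytokines and growth factors were higher in 18 of 28 and lower in 2 (median 1.05). Il4ra and Il13ra1, which form the receptor for interleukins 4 and 13, rose by 2.15 ± 0.16 and 3.97 ± 0.22 (228 ± 35.4 against 51.3 ± 4.7 CPM and 137 ± 20.5 against 8.67 ± 0.639 CPM). Tgfbr2, which binds transforming growth factor beta, had 1328, 947 and 617 against 169, 170 and 186 CPM (2.46 ± 0.27), whereas its signalling partner Tgfbr1 was not called (0.04 ± 0.18). Il17ra was lower (-0.82 ± 0.13). Among growth factor genes, 7 of the 18 tested of 22 were higher and 2 lower (4 lower without interstitial F). Pdgfc, a ligand for receptors on fibroblasts, had 86, 98.2 and 62 against 0.822, 1.34 and 1.24 CPM (6.17 ± 0.27), with a narrow spread in each group. Bmp2, a bone morphogenetic protein, had 12.9, 44.6 and 21.5 against 0.13, 0.0994 and 0.0922 CPM (7.83 ± 0.55, 7.19 without interstitial E), and Vegfb was lower (-1.40 ± 0.23). Grn, progranulin, was not called (-0.02 ± 0.15).

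Receptors that sense microbes and antibody differed gene by gene. Of 24 pattern receptors 23 were tested, 9 were higher and 6 lower (median 0.25). Tlr5, the flagellin receptor, had 138, 75.2 and 28.2 against 3.2, 3.78 and 3.23 CPM (4.55 ± 0.58, 3.90 without interstitial D), and Clec4n, dectin 2, rose by 4.39 ± 0.38. Clec7a, dectin 1, rose by 2.97 ± 0.66, or 1.77 without interstitial F. Clec4d, by contrast, had 36.8, 35.2 and 28.7 against 339, 305 and 330 CPM (-3.28 ± 0.23), and Cgas, the cytosolic DNA sensor, fell by 2.58 on the log2 scale. Tlr4, the endotoxin receptor, and Tlr7 were not called (-0.02 ± 0.15 and 0.28 ± 0.31; Tlr7 was called without interstitial F, at 0.58). Of the 7 Fc receptor genes tested of 9, 3 were higher and 4 lower (2 lower without BMDM G, H or I). The neonatal receptor gene Fcgrt had 899, 558 and 519 against 7.31, 9.84 and 7.1 CPM (6.35 ± 0.27), and the inhibitory receptor gene Fcgr2b 890, 526 and 722 against 30.9, 28.6 and 31.7 CPM (4.55 ± 0.20). Fcer1g, the signalling chain of activating receptors, was lower (-0.78 ± 0.12), and the activating receptor gene Fcgr3 was higher as well (701 ± 169 against 349 ± 12.8 CPM).

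Transcription factor genes were higher in 17 of the 32 tested of 34 and lower in 7 (median 0.84). Spi1, the macrophage lineage factor PU.1, was not called (0.15 ± 0.14, 347 ± 12.4 against 312 ± 6.36 CPM). Klf4, a zinc finger factor of monocytes and macrophages, had 879, 948 and 813 CPM in interstitial D, E and F and 30.1, 29.5 and 33.3 CPM in BMDM (4.83 ± 0.15) and was even within each group. Irf4, a factor of alternatively activated macrophages and dendritic cells, had 65.2, 153 and 374 against 2.16, 1.84 and 1.38 CPM (6.78 ± 0.71, 5.92 without interstitial F). The lower group included Pparg, the fatty acid-sensing receptor (0, 4.55 and 3.61 against 30.7, 33.4 and 29 CPM, -3.30 ± 0.57), and the helix-loop-helix inhibitors Id1 and Id3 (-3.23 ± 0.62 and -3.14 ± 0.48). Nr4a3 rose by 9.31 ± 1.48 (8.51 without interstitial F, 8.71 and 12.05 without BMDM G and I) and Nr4a1 by 5.92 ± 0.69, with D lowest in both (4.88, 55.7 and 105 and 111, 471 and 692 CPM).

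Immediate early genes, which are induced within minutes of a stimulus and by tissue dissociation, moved as 1 block. Of 26 listed 25 were tested, 24 were higher and Fosl1 was not called (0.18 ± 1.11), with a median of 3.71. Egr1, a zinc finger factor, had 465, 916 and 718 CPM in interstitial D, E and F and 0.346, 0.0994 and 0.231 CPM in BMDM (11.50 ± 0.40), and Fosb had 501, 1211 and 847 against 1.51, 2.58 and 1.98 CPM (8.72 ± 0.46). Interstitial E was highest and D lowest in both, and no cultured library came near. Egr2 rose by 6.43 ± 0.41. The list shares members such as Nr4a1, Klf2, Klf4, Btg2 and Dusp1 with the lists of regulators above and below. The sorted cells were taken out of tissue and the cultured ones were not, so handling and tissue state cannot be told apart in these genes. Heat shock genes were 5 higher and 5 lower of 18 (median 0.09), against 23.4% and 21.3% of all genes. The inducible Hspa1a and Hspa1b rose by 7.60 ± 0.93 and 6.85 ± 0.96 (154, 610 and 568 against 1.51, 1.79 and 3.55 CPM for Hspa1a), and these near-identical copies may share reads. The chaperones of mitochondria and endoplasmic reticulum, Hspd1 and Hspa5, fell (-1.41 ± 0.15 and -0.85 ± 0.13), as did Chordc1 (-1.68 ± 0.22).

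Genes of cell division were lower in both lists measured, 30 of 30 DNA replication genes (median -2.89) and 30 of 30 mitosis genes (median -3.63, -4.31 without interstitial F), against 21.3% of all genes. Of these Cenpf, a kinetochore protein gene (-3.48 ± 1.02), lost its call without BMDM G, H or I (adjusted p up to 0.0981). The groups did not overlap for any gene of either list, against 62.2% of all genes. Mcm10, which loads the replication machinery (ENSMUSG00000026669, chromosome 2, 4989714 to 5012791, minus strand), had 0.443, 2.09 and 4.67 CPM in interstitial D, E and F and 88.6, 87.9 and 81.3 CPM in BMDM G, H and I (-5.04 ± 0.41, -5.67 without interstitial F). Rrm2, the ribonucleotide reductase subunit that supplies DNA precursors, had 12.4, 8.73 and 20.2 against 282, 267 and 293 CPM (-4.37 ± 0.30). Aurka, the spindle pole kinase (ENSMUSG00000027496, chromosome 2, 172356190 to 172370535, minus strand), had 0.443, 2.55 and 4.25 against 83.6, 88.9 and 79.9 CPM (-4.97 ± 0.37). For Mcm10 and Aurka interstitial D was lowest and F highest, and F was still more than 10-fold under the lowest BMDM library. Ttk, the spindle checkpoint kinase, fell by 4.63 (-5.34 without interstitial E), Ccnb1, cyclin B1, by 4.36 (-5.41 without F) and Tk1, thymidine kinase, by 3.52 (-4.23 without F) on the log2 scale. Mki67, the proliferation antigen, was still present at 50.1, 108 and 175 CPM in the interstitial libraries against 1335, 1232 and 1378 CPM (-3.55 ± 0.54). Promoters of division genes are known for 2 kinds of element, the E2F site of replication genes and the CHR element of mitotic genes, and 1 example of each is shown.
Windows as above, with TTTGAA (CHR) or its reverse complement in capitals in Ccnf, cyclin F, chr17:24251410-24251659 on the minus strand, and TTTNGCGC (E2F) in capitals in Uhrf1, a replication-linked methylation factor, chr17:56304063-56304312 on the plus strand.
Ccnf: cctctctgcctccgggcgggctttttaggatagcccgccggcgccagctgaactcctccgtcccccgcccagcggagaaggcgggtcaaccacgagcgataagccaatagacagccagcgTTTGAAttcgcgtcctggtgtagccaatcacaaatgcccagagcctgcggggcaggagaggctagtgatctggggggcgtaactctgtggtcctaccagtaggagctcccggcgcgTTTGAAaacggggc
Uhrf1: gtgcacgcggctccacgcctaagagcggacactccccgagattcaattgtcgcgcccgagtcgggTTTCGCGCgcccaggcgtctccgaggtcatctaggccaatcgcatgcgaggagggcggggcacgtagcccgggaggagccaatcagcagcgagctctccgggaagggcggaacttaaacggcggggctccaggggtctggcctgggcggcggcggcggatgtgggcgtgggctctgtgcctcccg
Ccnf held 2 matches, the nearer 14 bases before the start site, and was measured at 0, 2.55 and 10.6 against 108, 110 and 103 CPM (-4.52 ± 0.76, -5.80 without interstitial F). Uhrf1 held 1 match, 185 bases before the start site, and was measured at 12.4, 14.4 and 22.5 against 221, 229 and 207 CPM (-3.72 ± 0.29). CHR letters were in 11 of 28 mitosis windows (39.3%), 4 of 30 replication windows (13.3%) and 16.0% of all windows. E2F letters were in 5 of 30 replication windows (16.7%), 1 of 28 mitosis windows (3.6%) and 1.1% of all. CCAAT, a general upstream box, was in 23 of 28 mitosis windows (82.1%) and 33.8% of all. The heat shock element GAANNTTC, searched in the same way, was in 6 of 19 windows of heat shock genes (31.6%) and 6.7% of all. Every motif was searched on both strands, and matches of different motifs may share bases.

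**Figure D3:**
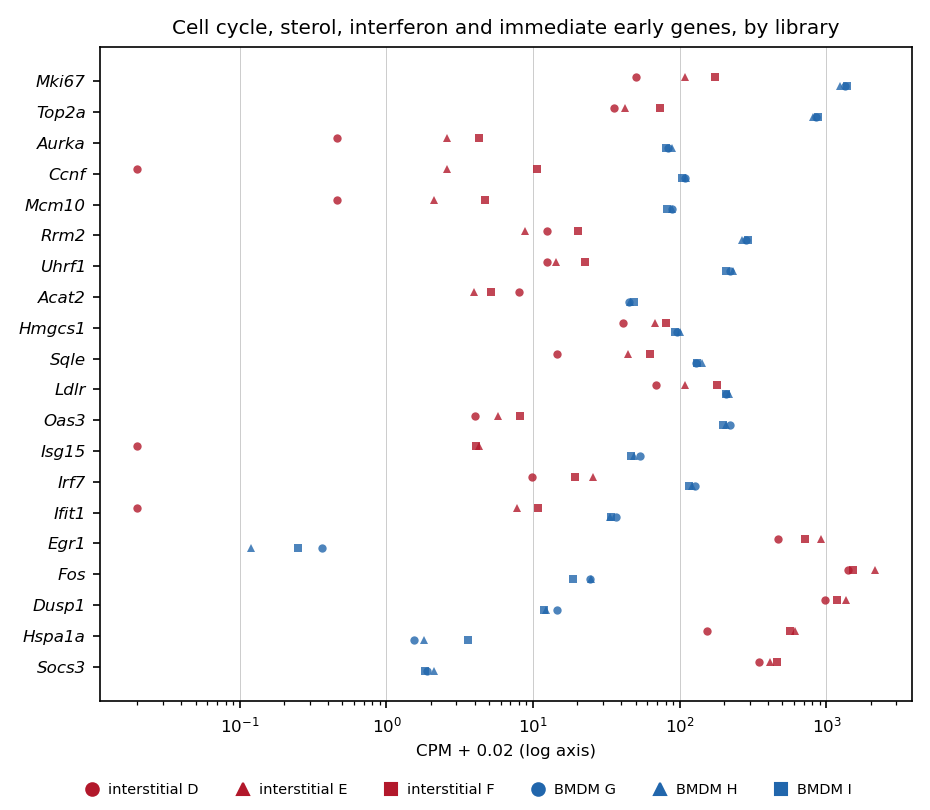
CPM by library (log axis, 0.02 added) for cell cycle, sterol, interferon, immediate early and heat shock genes, with interstitial libraries in red and BMDM libraries in blue. From Mki67 to Ifit1 the red points lie left of the blue ones, with Ifit1 not called, and from Egr1 to Socs3 they lie to the right.

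Genes that hold cells out of division did not move as a block. Of 20 inhibitors and quiescence genes 10 were higher and 5 lower (median 0.80; 3 lower without interstitial E or BMDM H). Btg2, an antiproliferative factor that is also an immediate early gene, had 155, 393 and 319 against 26, 22.7 and 28.2 CPM (3.50 ± 0.33), and Klf2 rose by 2.83 ± 0.22. Cdkn2c and Cdkn2d, inhibitors of cyclin D kinases, were lower (-1.26 ± 0.29 and -2.05 ± 0.27), as was the retinoblastoma relative Rbl1 (32 ± 12.6 against 132 ± 2.57 CPM). Cdkn1a, p21, was not called (-0.22 ± 0.43), its interstitial values running from 70 to 311 CPM around those of BMDM.

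Sterol synthesis genes were mostly lower: 21 of 24 fell (median -1.35), and the 3 not called were Ebp, Mvk and Tm7sf2 (Mvk was called without interstitial F, at -1.09). Leaving out BMDM G, H or I in turn left 16, 15 and 17 lower, and leaving out interstitial E left 18. Acat2, which condenses acetyl units for the pathway, had 7.98, 3.91 and 5.1 CPM in interstitial D, E and F and 45.1, 45.7 and 48.8 CPM in BMDM (-3.13 ± 0.36), and Fdft1, squalene synthase, 10.2, 9.74 and 17 against 54.8, 59 and 58.8 CPM (-2.22 ± 0.60). No interstitial library reached a BMDM library in any of the 24, against 62.2% of all genes without overlap. The sterol element CACCCCAC was in 2 of 20 of their windows (10%) and 2.6% of all, and CCAAT in 16 of 20 (80.0%). Of 27 genes of lipid uptake, storage and efflux, 16 were lower and 6 higher (median -1.11), with 11, 11 and 12 lower when BMDM G, H or I was left out in turn. Among the higher ones, Abca1, which loads cholesterol onto apolipoprotein, had 633, 672 and 389 against 18, 17.4 and 21.9 CPM (4.88 ± 0.23), Apoe, its lipid carrier, 3752, 2409 and 1768 against 195, 239 and 314 CPM (3.41 ± 0.31), and Cd36, the fatty acid transporter, 3313, 2479 and 1502 against 231, 246 and 169 CPM (3.49 ± 0.27). In these 3, and in the phospholipid transfer gene Pltp (3.89 ± 0.17), the groups were well separated. The lower ones included Fasn, fatty acid synthase (23.5, 38.5 and 53.1 against 360, 369 and 383 CPM, -3.25 ± 0.25), and Fabp5, a fatty acid carrier (-3.49 ± 0.98, -5.70 without interstitial F, call lost without BMDM G, H or I, highest adjusted p = 0.076). Abcg1, a second cholesterol exporter, was not called (-0.41 ± 0.48).

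Lysosome genes were lower in 13 of 29 and higher in 7 (median -0.32). Ctsd, cathepsin D (ENSMUSG00000007891, chromosome 7, 142375911 to 142388038, minus strand), had 460, 393 and 561 CPM in interstitial D, E and F and 3906, 4098 and 3674 CPM in BMDM (-3.05 ± 0.19), and Lipa, the acid lipase that frees cholesterol from lipoproteins, 364, 369 and 280 against 1604, 1538 and 1499 CPM (-2.20 ± 0.15). Other proteases went up, with Ctsc, which activates granule proteases, at 2106, 1505 and 973 against 318, 318 and 305 CPM (2.28 ± 0.23) and Ctsk, the collagen-cleaving cathepsin K, at 178, 340 and 249 against 11.5, 8.69 and 11.2 CPM (4.62 ± 0.28). Each of these 4 was separated between groups. Psap, the saposin precursor, was not called (-0.32 ± 0.14; called without interstitial D, at -0.42, or lining C, at -0.35). Iron genes were 6 higher and 4 lower of the 19 tested of 20. The ferritin chains Fth1 and Ftl1, the iron store, fell (-2.19 ± 0.15 and -1.53 ± 0.15; 2577 ± 168 against 11759 ± 585 CPM for Fth1), and Slc40a1, the iron exporter ferroportin, rose (1.41 ± 0.33). Cp, ceruloplasmin, which oxidises exported iron, had 77.6, 31.5 and 14.2 CPM against 1 BMDM count, 2085-fold (95% counting interval 373 to 82491), its fitted value of 10.54 going to 9.78 without interstitial D and 11.60 without BMDM H, and Trf, transferrin, rose by 3.71 ± 0.53 (2.91 without interstitial D). Hmox1, haem oxygenase 1, was not called (0.11 ± 0.13). Antioxidant genes fell in 13 of 21 tested of 22 and rose in 3 (median -0.49; 8 lower without interstitial E or BMDM H). Gclm, a subunit of the glutathione-making ligase, had 30.1, 44.4 and 33.3 against 210, 198 and 196 CPM (-2.46 ± 0.17), Cat, catalase, -1.78 ± 0.15 on the log2 scale and Prdx1, a peroxiredoxin, -1.92 ± 0.14, while Gpx3 rose (1.77 ± 0.34).

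Energy metabolism differed modestly, and for glycolysis the count turned on 1 library and on the test. Of 22 citric acid cycle genes 10 were lower and 2 higher (median -0.22): Cs, citrate synthase, fell (-0.86 ± 0.13), and Idh2 rose (0.92 ± 0.19). Of 22 glycolysis genes 4 were lower and Pfkfb3, which makes the activator of phosphofructokinase, was higher (2.06 ± 0.17). Gapdh had 316, 284 and 960 CPM in interstitial D, E and F and 1068, 1006 and 966 CPM in BMDM (-0.96 ± 0.41, adjusted p = 0.0837), and Ldha, lactate dehydrogenase, 435, 307 and 1060 against 1071, 1106 and 1015 CPM (-0.82 ± 0.39, adjusted p = 0.112). Interstitial D and E thus lay well below BMDM and interstitial F near it. Pkm, pyruvate kinase, was lower, with a log2 fold change of -1.97 ± 0.41 over all libraries and -2.77 without F. Without interstitial F, 18 of the 22 were lower, with a median of -1.37 in place of -0.74, and Gapdh (-1.78) and Ldha (-1.54) were called. With all libraries, limma-voom called 12 lower. Hk3, a hexokinase of myeloid cells, had 65.6, 53.1 and 74.3 against 378, 404 and 371 CPM (-2.58 ± 0.16) and was even across the interstitial libraries, while Aldoa (-0.96 ± 0.35) lost its call in 7 of the 9 fits that left out 1 library (highest adjusted p = 0.115) and was -1.66 without F.

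Matrix genes were higher in 18 of the 25 tested of 27 and lower in 2 (median 3.04, 1.80 without interstitial F), with 11 higher without BMDM H or I, and the lower count running from none without BMDM H to 4 without interstitial F. Fn1, fibronectin (ENSMUSG00000026193, chromosome 1, 71585520 to 71653200, minus strand), had 360, 1499 and 11867 CPM in interstitial D, E and F and 2.03, 2.43 and 2.9 CPM in BMDM (10.86 ± 1.65, 8.54 without interstitial F). Sparc, a collagen-binding matrix protein, had 70.5, 113 and 104 against 0.216, 0.248 and 0.415 CPM (8.31 ± 0.35), and Ecm1 1208, 1211 and 1763 against 41.6, 43.7 and 35.9 CPM (5.11 ± 0.19). Fn1 was far higher in F than in D or E while Ecm1 stayed within a narrow range, and in all 3 genes the groups did not overlap. Mmp9, gelatinase B, rose by 6.44 ± 0.79. Plau, urokinase, was lower (-1.24 ± 0.43), a call that did not hold once any of BMDM G, H or I or interstitial E was left out (adjusted p up to 0.151), and Adam8 was not called (-2.62 ± 1.33; called without interstitial F, at -4.58), its interstitial values spreading over 12.4, 119 and 677 CPM. Fibroblasts make much of the matrix of the synovium, and of their 14 markers 10 were higher and Cd34 lower. The markers summed to 228, 743 and 446 CPM in interstitial D, E and F against 83.9 to 98.2 in BMDM, with no marker at 0. Prg4 alone had 19.9, 408 and 138 CPM of this. The matrix list summed to 9216, 10147 and 22092 CPM in D, E and F, of which Fn1 alone had 360, 1499 and 11867 CPM. Among the fibroblast markers Col3a1, a fibrillar collagen chain, had 47, 74.1 and 61 against 0.476, 0.397 and 0.0922 CPM. The part of fibroblasts in the matrix result was not tested.

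Osteoclast and fusion genes split within the list, 8 of the 19 tested of 22 higher and 4 lower (median 0.60). Acp5, tartrate-resistant acid phosphatase, had 25.3, 61 and 73.5 against 4.63, 3.83 and 5.67 CPM (3.52 ± 0.41), and Ctsk and Mmp9, given above, rose too. Spp1 and Gpnmb were lower, as was Tcirg1, a subunit of the osteoclast proton pump (-1.09 ± 0.24). Tnfrsf11a, the receptor for the osteoclast differentiation factor RANKL, was not called (0.19 ± 0.22). Integrin and adhesion genes were 6 higher and 7 lower of 24, against 23.4% and 21.3% of all genes. Itga9, an integrin chain that binds tenascin, had 148, 159 and 115 against 1.25, 1.54 and 0.784 CPM (6.87 ± 0.26), and Itga6, a laminin-binding chain, 29.3, 58.3 and 51.2 against 337, 364 and 296 CPM (-2.82 ± 0.23). Icam1 rose by 1.90 ± 0.32 and Itgal, a chain of its receptor, fell (-1.95 ± 0.44, -2.59 without interstitial F). Cd44, the hyaluronan receptor, was higher (1.52 ± 0.51) with its call lost without any of BMDM G, H or I or interstitial E or F (adjusted p up to 0.15). Itgb1 and Itgb2 were not called (0.28 ± 0.13 and 0.46 ± 0.20; Itgb2 was called without interstitial E, at 0.60).

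**Figure D4:**
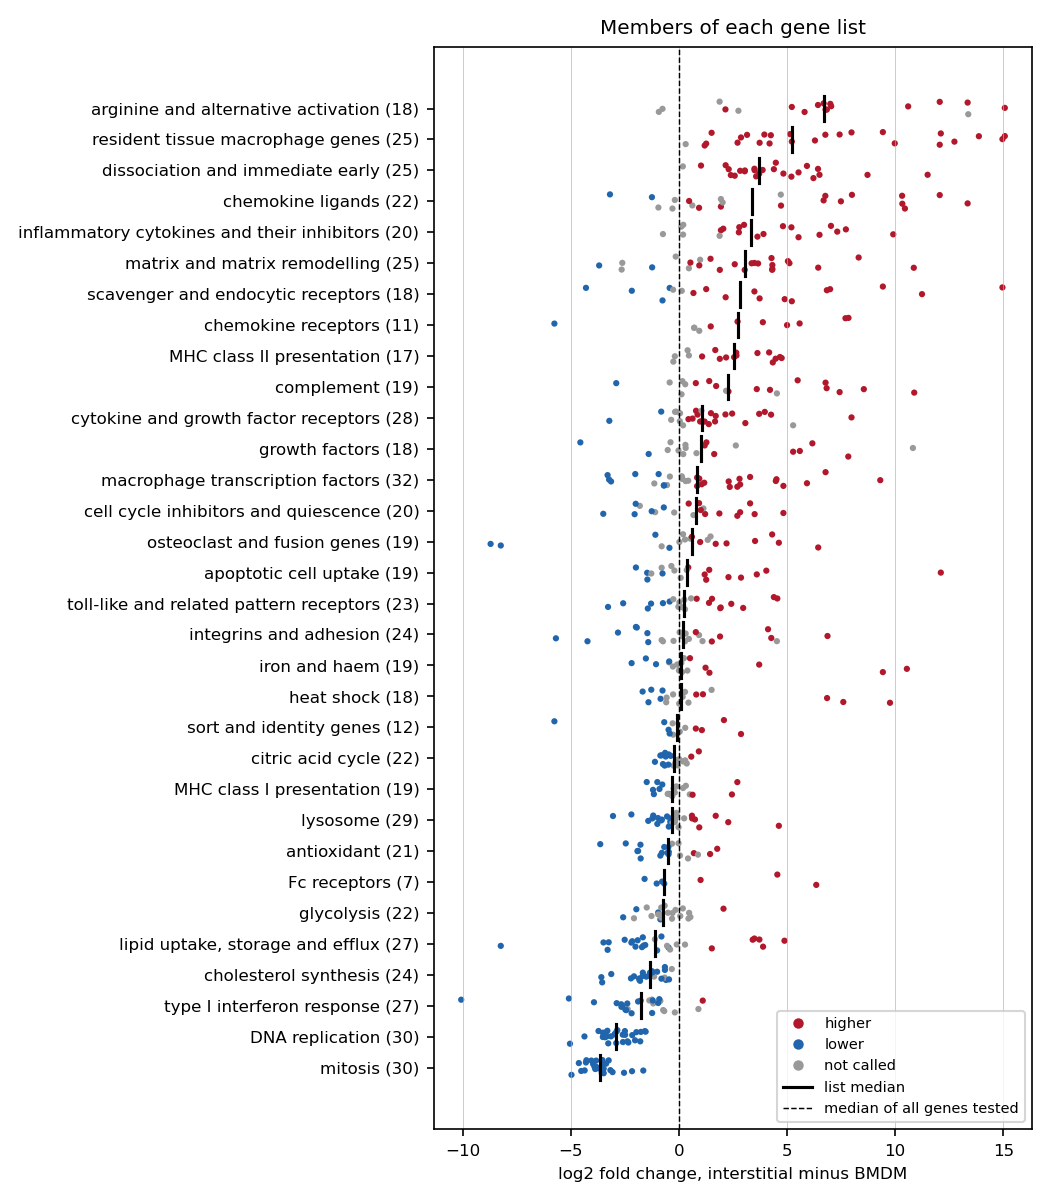
Log2 fold change, interstitial minus BMDM, of each tested member of the 32 lists of biology, handling and identity genes, sorted by list median, with the number tested in brackets, red and blue for genes called higher and lower and grey for genes not called. Alternative activation and resident macrophage genes lie farthest to the right, with medians of 6.73 (5.39 without interstitial F) and 5.22, and mitosis genes farthest to the left, at -3.63 (-4.31 without interstitial F).

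Genes of arginine metabolism and alternative activation, the state that interleukins 4 and 13 induce, were higher in 13 of the 18 tested of 20 (median 6.73, 5.39 without interstitial F and 5.33 by limma-voom; 8 higher without BMDM I, and 2 lower without interstitial F). Mgl2, a galactose-binding lectin gene, had 530, 334 and 1127 CPM in interstitial D, E and F and 0.519, 0.497 and 0.231 CPM in BMDM (10.60 ± 1.04, 9.96 without interstitial F). It was high in every sorted library. Arg1, arginase 1 (ENSMUSG00000019987, chromosome 10, 24915221 to 24927484, minus strand), was not called (adjusted p = 0.0979; called without lining C): it had 0, 0.091 and 2324 CPM in D, E and F and 0.0865, 0 and 0.0922 CPM in BMDM. Nearly all of it was in F, and without F the fitted difference was 0.23 in place of 13.38. Tgm2, transglutaminase 2, was not called (-0.93 ± 0.63; called without interstitial F, at -2.08).

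Interstitial F stood apart in further genes, which were picked after the values of the libraries had been seen and are given as a description. Among the interstitial libraries F had 444 genes more than 1 log2 unit above both others, after adding 2 CPM, and 215 as far below, D had 307 above and 964 below, and E had 144 and 79. Slc7a2, an arginine transporter gene, had 6.21, 15.2 and 1972 CPM in D, E and F against 5.19, 6.91 and 5.03 in BMDM, and Chil3, a chitinase-like protein gene, 0, 10.5 and 238 against 11.7, 13.2 and 12.1 CPM. Itgax, CD11c, had 11.1, 42.4 and 411 CPM against 7.35, 7.1 and 5.76 CPM. All 3 were highest in F by a wide margin and were not called, Itgax gaining a call without interstitial D or E or lining A or C. Slc7a2 was called in 2 of the 9 fits that left out 1 library. The fitted values of Slc7a2, Chil3 and Itgax were 6.86, 2.75 and 4.53, and 1.06, -1.02 and 2.04 without F. Flt1, a receptor of vascular endothelial growth factor that is also an endothelial marker, had 0.887, 7.01 and 408 CPM. Endothelial markers summed to 252, 217 and 670 CPM in D, E and F and to 173 to 174 in BMDM, and Flt1 was most of the sum in F. Of the 12 endothelial markers tested of 14, 8 were higher and 1 lower. Leaving out BMDM G, H or I in turn left 5, 4 and 5 higher. The 16 genes known to respond to low oxygen, also chosen after their values were seen, were all highest in F of the 3 interstitial libraries. Because of that choice the count is no test of a state of F. Of the 16 genes, 4 (Bnip3, Adm, Kdm3a and Mxi1) were higher than in BMDM, a share near the 23.4% of all genes. Adm lost its call without any of BMDM G, H or I or interstitial F (adjusted p up to 0.102). Vegfa, vascular endothelial growth factor A, had 0, 5.37 and 155 CPM in D, E and F and 30.2, 26.5 and 36.1 CPM in BMDM, and Slc2a1, the glucose transporter, 2.22, 14.2 and 249 against 99.4, 99.9 and 99.5 CPM. Neither was called, and each was called in 1 of the 9 fits that left out 1 library. Their fitted values were 0.81 and -0.16, and -3.13 and -3.34 without F. Interstitial D, which had the fewest counts of the 6 libraries compared, was lowest for these 2 genes, as for Il1b and Nlrp3. The number of animals, the cell yield and the sort behind each library are not in the labels, and the part of depth in these differences was not tested.

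**Figure D5:**
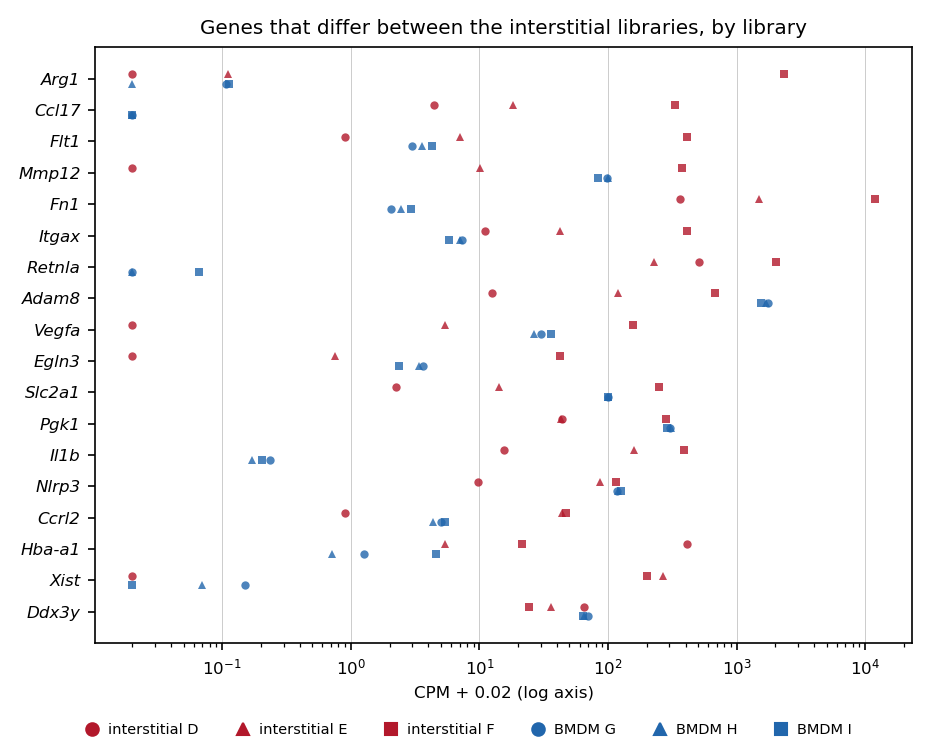
CPM by library (log axis, 0.02 added) of genes that differ between the interstitial libraries, chosen after their values were seen, with interstitial D, E and F in red and BMDM in blue. From Arg1 to Pgk1 interstitial F (red square) lies to the right of D and E, from Il1b to Ccrl2 interstitial D (red circle) lies to the left, and Hba-a1 is highest in D.

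Markers of other cells were higher in interstitial libraries for several types, mostly at low levels. Erythrocyte markers summed to 426, 13.6 and 29.3 CPM in interstitial D, E and F and to 0.894 to 4.66 in BMDM; Hba-a1, a haemoglobin chain, made up most of it (411, 5.37 and 21.5 CPM), and Epb42 and Klf1 were at 0 in the interstitial libraries. Neutrophil markers summed to 81.6, 221 and 176 CPM against 63.2 to 76, with 1 of 9 tested higher (Mmp9, which macrophages also make; 2 without interstitial F), 1 lower (3 without interstitial E, 2 without F, none without BMDM H) and Elane at 0. T and NK cell markers stood at 40.8, 51.6 and 57.3 CPM against 87.7 to 97.4, with Cd3e, Cd3g, Cd8a, Trbc2, Klrb1c and Ncr1 at 0. Of the 2 tested of 13, 1 was higher. B cell markers had 4 of the 4 tested of 10 higher and summed to 383, 225 and 141 CPM against 21.5 to 22, nearly all of it Ighm, the immunoglobulin heavy chain (368, 204 and 127 CPM), with Jchain at 0. Classical monocyte markers summed to 9258, 5686 and 4247 CPM against 183 to 227, and F13a1, also a resident macrophage gene, was most of that sum; 4 of 13 were higher and 1 lower. Mast cell markers had 5 of 7 tested higher and 1 lower, with Fcer1a, Ms4a2 and Mcpt8 at 0. They summed to 15.5, 52.3 and 53.9 CPM in D, E and F against 12.2 to 12.7 in BMDM. Pericyte markers had 4 of 7 higher at 87.3, 217 and 266 CPM against 57 to 83.2. Osteoblast markers had 3 of 4 higher (1 without BMDM G, H or I) and 1 lower. They summed to 28.4 to 56.5 CPM against 8.59 to 10.9 in BMDM, with Bglap, Sp7 and Sost at 0. Skeletal muscle, keratinocyte, chondrocyte and adipocyte markers summed to at most 36.5 CPM in each interstitial library. Higher were 3 of the 6 tested of 12 for muscle, 2 of the 2 tested of 11 for cartilage and 2 of the 3 tested of 10 for fat. For muscle, 2 were higher without any of BMDM G, H or I or interstitial E or F. Acan, Matn3, Col9a1, Hapln1 and Snorc of cartilage were at 0 in the interstitial libraries. So were Adipoq, Plin1, Plin4, Lep, Cfd and Retn of fat. Adipocyte markers summed to 35, 13.8 and 36.5 CPM in D, E and F and to 21.8 to 26.1 in BMDM. Schwann cell markers summed to 821 to 1226 CPM, almost all from Pmp22 (1130, 800 and 678 CPM against 429, 477 and 379), which BMDM express as well. A gene can pass the count filter through the group where it is high. Counts of higher genes among the markers tested are therefore a description and no test. With the 6 libraries alone, 3 of 3 B cell and 4 of 5 mast cell genes tested were higher. The part of these cells in the results above was not tested.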

How the data were processed

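RNA was sequenced from sorted synovial macrophages and BMDM as single 101 bp reads of stranded, poly(A)-selected TruSeq libraries made from 500 ng RNA, per the labels' protocols. The authors deposited 1 table of raw read counts per gene. Per the file headers, featureCounts counted reads over exons on the reverse strand (Ensembl genes, GRCm38, release 91), with no option for multi-mapping reads, so counts of near-identical genes may be lost or split. The submitters' processing notes name bcl2fastq 2.17.1.14, cutadapt 1.15, STAR 2.5.4a, featureCounts 1.6.1, DESeq2 1.20.0 and R 3.5.0, with no settings. Of 53465 genes 53274 were matched to a symbol; those without one were tested under their identifier.

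The counts were tested with edgeR 4.0.16 in R 4.3.3. The filterByExpr filter had a minimum count of 10 and a minimum total of 15, and TMM factors scaled the libraries. All 9 libraries entered 1 quasi-likelihood fit with a term for each group. The contrast interstitial minus BMDM was tested 2-sided with Benjamini-Hochberg adjustment over 12610 genes, at 0.05, and with glmTreat at 2-fold. CPM are scaled by TMM factors; values after ± are SE for log2 fold changes (its size divided by the root of the F statistic) and SD for CPM. A group with no count was set to 3 counts over its summed libraries to give a bound ("at least"); with 1 to 3 counts, the summed CPM of the groups are compared as a ratio with an exact 95% binomial interval. The scripts were tested on simulated data.

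Named genes are the 10 largest rises and falls among called genes with at least 20 CPM in the higher group, no overlap and a call in every leave-one-out fit, the marker and sort genes, and, for each list, up to 4 called genes per direction with at least 20 CPM and the 2 most abundant not called; a few genes that the rule names are not reported here. A few further list members, the genes known to respond to low oxygen, those high in interstitial F, the sex chromosome genes and the genes of 2 figures were chosen after their values were seen. The lists were written by hand, with untested members below the count filter or not matched by symbol, and the members and lists were chosen with earlier results of these data known. Promoter windows came from RefSeq (GRCm38.p6), the build of the counts. Alternatives were other scalings, filters and tools (DESeq2 1.42.0, limma 3.58.1), BMDM counts thinned to the sorted depth, the 6 libraries alone, and leaving out each library.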

Additional observations from a re-analysis of the deposited data

How the results depend on the processing

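The numbers of genes higher and lower in interstitial macrophages stayed within 1.5 times of the reported 2955 and 2688, and those past 2-fold of 1454 and 881, under every alternative that was run, and no gene that kept its call changed sign. They were 3077 and 2540 with DESeq2 size factors, 2874 and 2797 with plain library totals, 3404 and 2769 by DESeq2, 3333 and 3164 by limma-voom, and 2840 and 2362 with BMDM thinned to the mean depth of the sorted libraries. Leaving out 1 library gave 2154 to 3247 genes higher and 1992 to 3024 lower, and 1039 to 1581 and 599 to 990 past 2-fold, lowest without a BMDM library. Among the named genes Mmp12, which was not called (0.46), ranged from -3.82 without interstitial F, where most of its interstitial counts lay and where it was called (adjusted p = 0.0123), to 1.01 without interstitial E. No paired analysis was possible because the groups share no replicate letters. Depth limits what is shown for rare transcripts in interstitial D, where 3 counts are 1.34 CPM.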

Other observations

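Sex chromosome genes, looked at after the values had been seen, differed among the interstitial libraries. Xist, the transcript of the inactive X chromosome, had 0, 269 and 199 CPM in interstitial D, E and F and 0.13, 0.0497 and 0 CPM in BMDM G, H and I. The Y-linked genes were detected in all 6 libraries: Ddx3y at 64.7, 35.8 and 24.2 CPM in D, E and F and 63.8 to 70.3 CPM in BMDM, and Kdm5d at 18.2, 14 and 6.8 CPM against 36.6 to 42.4 CPM. Of the 4 Y-linked genes Kdm5d and Uty were lower (-1.62 ± 0.42 and -1.58 ± 0.48 on the log2 scale), the call of Uty being lost without BMDM G, BMDM I or interstitial E (adjusted p up to 0.0791). The labels give no sex. Whether E and F pool animals was not tested.

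By gene type, 2790 of 11771 protein-coding genes were higher and 2624 lower, where 23.4% and 21.3% of all genes tested were. Long intergenic noncoding RNA genes had 44 higher and 20 lower of 197 tested, and antisense RNA genes had 29 higher and 15 lower of 153. The difference between the types was not tested.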
